A study of Mus musculus with 6 samples.

Results

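The glucocorticoid receptor gene Nr3c1 and 7 genes that act on the hormone or respond to it were followed through the cell classes of the mouse genioglossus, the tongue muscle that pulls the tongue forward and keeps the pharynx open. The genes were Fkbp5, Tsc22d3, Zbtb16, Sgk1, Klf9, Cebpd and Hsd11b1. They were chosen by name, with earlier results of these data known, and each symbol matched 1 row, so that 8 of the 33696 genes listed were described. All samples were primary genioglossus of male mice, dissociated into single cells, captured on the 10x Genomics droplet platform and marked as batch 1. One group, OSA-4W, had been modelled for obstructive sleep apnea (OSA), in which the airway closes repeatedly during sleep, and its muscle was taken at week 4. The other group was labelled control and was taken at the same time. The labels list 3 libraries for each group, and the counts used here came from OSA replicates 1, 2 and 3 and control replicate 2. Not analysed here were control replicates 1 and 3. The labels leave out the way OSA was modelled, the strain, the age, the hour of collection and the number of mice behind a library. Since separate animals are not stated, the spread behind each p-value is that between libraries and may be technical.

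Glucocorticoids are steroid hormones of the adrenal cortex that follow a daily rhythm and rise with stress. They cross the cell membrane and bind the receptor, which is held ready by heat shock chaperones and then moves to the nucleus, where it binds DNA and switches genes on or off. In muscle the hormone is known for promoting protein breakdown, and in leukocytes for damping inflammation. Fkbp5 encodes a co-chaperone that lowers the receptor's affinity for hormone and is itself induced by the receptor, which closes a feedback loop. Hsd11b1 encodes the enzyme that regenerates active hormone from its inert keto form inside the cell. The other 5 genes are known receptor targets, although each also answers to other signals.

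Promoter letters are shown because the receptor binds a known element, AGAACA, then any 3 bases, then TGTTCT, which is made of 2 half-sites on opposite strands. RefSeq promoter windows of 300 bases (build GRCm38.p6, which is not the GRCm39 build of the counts) were matched by symbol for 5 of the 8 genes, with 12 windows in all: 6 of Sgk1, 3 of Tsc22d3 and 1 each of Fkbp5, Klf9 and Hsd11b1. No window was matched for Nr3c1, Zbtb16 and Cebpd. The full element was found in 3 of 32851 windows of all genes (0.00913%), and 1 of these was a window of Sgk1. The half-site AGAACA, searched on both strands and also counted inside a full element, was found in 4 of the 12 windows and in 19% of all windows. A match is a description of letters and not a bound site. The 250 bases upstream of the start are given for the Sgk1 window with the full element (chr10:21993640-21993889, plus strand, element beginning at base -189 from the start) and for the Tsc22d3 window with a half-site (chrX:140600523-140600772, minus strand, half-site beginning at base -185). Capitals mark the full element and the half-sites.
Sgk1: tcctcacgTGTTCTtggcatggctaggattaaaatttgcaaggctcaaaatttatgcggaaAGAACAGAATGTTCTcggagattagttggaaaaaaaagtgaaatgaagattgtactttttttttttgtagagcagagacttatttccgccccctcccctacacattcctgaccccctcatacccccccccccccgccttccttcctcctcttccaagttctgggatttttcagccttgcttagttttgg
Tsc22d3: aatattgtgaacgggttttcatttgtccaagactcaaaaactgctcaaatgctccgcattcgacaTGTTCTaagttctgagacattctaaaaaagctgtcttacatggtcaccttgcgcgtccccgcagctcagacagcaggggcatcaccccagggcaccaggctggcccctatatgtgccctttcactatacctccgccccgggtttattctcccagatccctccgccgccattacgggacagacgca

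After filtering and removal of called doublets, 15218, 12229 and 13736 cells were kept in OSA replicates 1, 2 and 3, against 13275 cells in control replicate 2. Median depth was 3896, 4889 and 4582.5 unique molecular identifiers (UMIs, counted molecules) per filtered cell, against 4118.5, with called doublets still included. Clusters were named from marker lists and are written with "-like". Of 16 named classes, 11 had at least 30 cells in every library and were tested. The T and NK-like class had 72, 53 and 149 cells in the OSA libraries and 109 in the control, and the neutrophil-like class had 184, 501 and 246 cells, against 42. The labels call the samples skeletal muscle cells, yet a cluster rich in myofibre transcripts (400 barcodes) also carried endothelial markers and was left unnamed. Any 2 of the 6 barcode lists of the series shared 41 to 67 barcodes, at most 0.468% of the smaller list. OSA replicate 3 stood apart in its counts over genes, with chi-square values per degree of freedom of 173 to 260 against the other libraries, compared with 43.7 to 84.0 among the other 3. Levels below are CPM (counts per 1000000 UMIs) of the summed class, OSA values are given for replicates 1, 2 and 3 in that order, and changes are log2 of OSA over control from edgeR's quasi-likelihood test with its standard error (SE) and Benjamini-Hochberg adjusted p.

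Across the 8 genes and 11 classes, 2 of 88 pairs of a gene and a class passed an adjusted p of 0.05, Zbtb16 and Klf9, both higher in OSA in the T and NK-like class. Over all genes tested, 0.336% of such pairs passed. All OSA libraries lay below the control in 34 of the 88 pairs (38.6%, against 28.4% over all genes) and above it in 26 pairs (29.5%, against 24.1%). The classes share the same 4 libraries, so the pairs are not independent. All OSA libraries were below the control in 9 classes for the receptor, 8 for Zbtb16 and 6 for Fkbp5, and above it in 6 classes for Cebpd and 5 for Sgk1. Apart from the 2 pairs in T and NK-like cells, none of these differences passed the test.

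**Figure D1:**
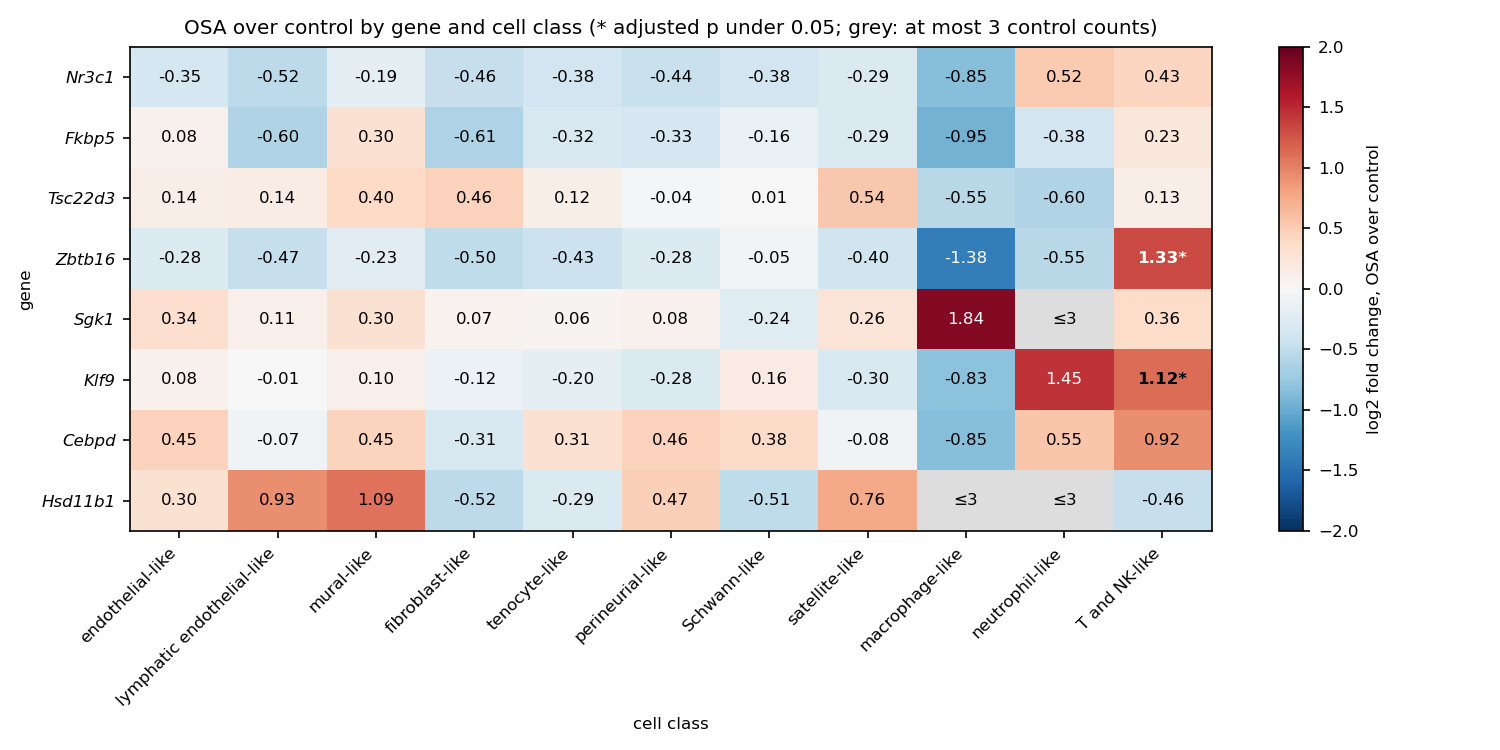
Fitted log2 change, OSA over control, of each of the 8 genes (down the page) in each of the 11 tested cell classes (across), with colour from blue (lower in OSA) to red (higher in OSA). Stars mark the 2 pairs with an adjusted p under 0.05, Zbtb16 at 1.33 and Klf9 at 1.12 in T and NK-like cells, and grey marks 3 pairs with at most 3 control counts, for which no fitted change is shown.

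Nr3c1, the receptor itself (ENSMUSG00000024431), had the narrowest span of the 8 genes between classes. Its mean over the 4 libraries was 227 ± 44.3 CPM (SD) in T and NK-like cells, 194 ± 40.4 in endothelial-like cells and 185 ± 56.1 in lymphatic endothelial-like cells at the top. It was 101 ± 38.5 CPM in macrophage-like cells and 87.8 ± 17.9 in satellite-like cells at the bottom, a 2.59-fold span. Each of the 10 neighbouring pairs in that order overlapped in range. In 9 of 11 classes every OSA library lay below the control, and in T and NK-like cells every one lay above it. In endothelial-like cells the receptor had 209, 189 and 141 CPM in OSA, against 236 CPM in control (log2 -0.35 ± 0.19 SE, adjusted p 0.942). In fibroblast-like cells it had 145, 142 and 90.7 CPM, against 178 CPM (log2 -0.46 ± 0.26). OSA replicate 3 was the lowest of the OSA libraries in 10 of 11 classes. None of the 11 changes passed the test (0 with edgeR and 0 with DESeq2, 1 with an unadjusted p under 0.05), and log2 values over the 11 classes ran between -0.85 and 0.52. That 1 was in macrophage-like cells, where 16.3% of all genes had an unadjusted p under 0.05.

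Fkbp5, the feedback co-chaperone (ENSMUSG00000024222), was highest in perineurial-like cells, at 691 ± 222 CPM, apart from the next class, endothelial-like cells, at 394 ± 65.6 CPM. The lowest class was T and NK-like cells at 120 ± 40.5 CPM. All OSA libraries lay below the control in 6 classes and above it in none, and none of the 11 changes passed the test (0 with edgeR and 0 with DESeq2, 1 with an unadjusted p under 0.05). That 1 was again in macrophage-like cells, with 16.3% of all genes under 0.05. In fibroblast-like cells Fkbp5 had 356, 274 and 194 CPM in OSA, against 429 CPM in control (log2 -0.61 ± 0.29 SE, p 0.0503, adjusted p 1.00). The OSA libraries differed more among themselves than the nearest one did from the control. In lymphatic endothelial-like cells it had 371, 194 and 175 CPM, against 377 CPM (log2 -0.60, adjusted p 0.913). There OSA replicate 1 lay beside the control, and without that library the change was -0.99 with an adjusted p of 0.00475. Leaving out the library nearest to the control widens the difference, so that value is no support for a change. In that fit 82 genes of the class passed as higher and 49 as lower of 9613, against 9 and 4 of 9878 with all libraries. In the other 9 alternatives Fkbp5 did not pass in this class.

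Tsc22d3 encodes GILZ, a leucine zipper protein known for restraining inflammatory transcription. The gene (ENSMUSG00000031431) was highest in tenocyte-like cells, at 744 ± 108 CPM and apart from the next class, and lowest in T and NK-like cells, at 180 ± 34.4 CPM. In fibroblast-like cells it had 456, 320 and 403 CPM in OSA, against 297 CPM in control (log2 0.46 ± 0.29 SE, adjusted p 1.00). In satellite-like cells, the muscle stem cells, it had 225, 182 and 240 CPM, against 150 CPM (log2 0.54 ± 0.25, p 0.038, adjusted p 0.753). All OSA libraries were above the control in those classes and in mural-like cells, and below it in macrophage-like and neutrophil-like cells. None of the 11 changes passed the test (0 with edgeR and 0 with DESeq2, 1 with an unadjusted p under 0.05). That 1 was in satellite-like cells, where 6.27% of all genes had an unadjusted p under 0.05.

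Zbtb16 encodes PLZF, a zinc finger transcription factor induced by glucocorticoids in many cells and also known as a factor of innate-like T lymphocytes. Over the 4 libraries the gene (ENSMUSG00000066687) had 1411 ± 284 CPM in perineurial-like cells, 1361 ± 209 in endothelial-like cells and 997 ± 141 in mural-like cells. It had 309 ± 189 CPM in macrophage-like and 170 ± 79.2 in neutrophil-like cells, and all neighbours in the order overlapped. All OSA libraries lay below the control in 8 classes. In endothelial-like cells it had 1415, 1312 and 1107 CPM in OSA, against 1609 CPM in control (log2 -0.28 ± 0.22 SE, adjusted p 0.942). In fibroblast-like cells it had 1027, 831 and 624 CPM, against 1201 CPM (log2 -0.50 ± 0.30). These differences ran the same way and did not pass the test. The T and NK-like and macrophage-like classes, where the gene differed most, are taken up after the other genes.

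Klf9, a Krüppel-like transcription factor (ENSMUSG00000033863), was highest in Schwann-like cells at 1431 ± 68.2 CPM and lowest in neutrophil-like cells at 126 ± 50.7 CPM. In several abundant classes the 4 libraries were close together. In endothelial-like cells it had 1032.5, 1015 and 1035 CPM in OSA, against 1013 CPM in control (log2 0.08 ± 0.21 SE). In mural-like cells, which wrap the vessels, it had 1114, 1089 and 1108.5 CPM, against 1064 CPM (log2 0.10 ± 0.26). The leukocyte classes spread more widely, as given below.

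Cebpd encodes a C/EBP family transcription factor of the acute phase and of fat cell formation (ENSMUSG00000071637). It had 1878 ± 150 CPM in tenocyte-like and 1738 ± 370 in fibroblast-like cells, against 85.2 ± 49.1 in T and NK-like cells. Satellite-like cells came next below fibroblast-like cells, at 1246 ± 212 CPM, with overlapping ranges. All OSA libraries lay above the control in 6 classes and below it in 2. In endothelial-like cells it had 319, 339 and 407 CPM in OSA, against 271 CPM in control (log2 0.45 ± 0.22 SE, p 0.0717, adjusted p 0.942). In mural-like cells it had 528, 515 and 554 CPM, against 402 CPM (log2 0.45 ± 0.24, adjusted p 1.00). All OSA values of both classes lay above the control library without passing the test. In endothelial-like cells OSA replicate 1 was closer to the control than to OSA replicate 3.

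Sgk1 encodes a kinase that acts on ion channels and cell survival, and its window carries the full element shown above. The gene (ENSMUSG00000019970) was highest in endothelial-like cells, at 438 ± 81.7 CPM, and lowest in neutrophil-like cells, at 59.99 ± 23.3 CPM. All OSA libraries lay above the control in 5 classes and below it in none. In endothelial-like cells it had 557, 422 and 397 CPM in OSA, against 376 CPM in control (log2 0.34 ± 0.21 SE, adjusted p 0.942). The nearest OSA library was closer to the control than to OSA replicate 1. In neutrophil-like cells the counts were 35, 100 and 35 UMIs, against 2 UMIs, too few in the control for a fold change.

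Hsd11b1, the hormone-regenerating enzyme (ENSMUSG00000016194), was the gene with the widest span, 117-fold between classes. Satellite-like cells had 276 ± 63.6 CPM, neutrophil-like cells 106 ± 72.2 and fibroblast-like cells 69.3 ± 19.9, whereas endothelial-like cells had 2.37 ± 0.702 CPM. In satellite-like cells it had 293, 327 and 302 CPM in OSA, against 183 CPM in control, an OSA mean of 307 ± 17.4 CPM (SD, n = 3). The 3 OSA libraries lay close together and all above the control, with a log2 change of 0.76 ± 0.25 SE (p 0.0039) that did not pass after adjustment over all genes (adjusted p 0.358). None of the 8 genes passed in this class with edgeR or with DESeq2, and 0.0907% of all genes passed with edgeR. An unadjusted p under 0.05 was given to 2 of the 8 and to 6.27% of all genes. In fibroblast-like cells the values ran the other way, with 80.8, 55.2 and 50.02 CPM in OSA, against 91.2 CPM (log2 -0.52 ± 0.25, adjusted p 1.00). In neutrophil-like cells the counts were 49, 331 and 33 UMIs, against 3 UMIs in the control. OSA replicate 2 supplied 360 of its neutrophil-like cells to a cluster led by Ngp and Retnlg, genes of maturing granulocytes, in which Hsd11b1 stood at 227 CPM and which held no control cell.

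**Figure D2:**
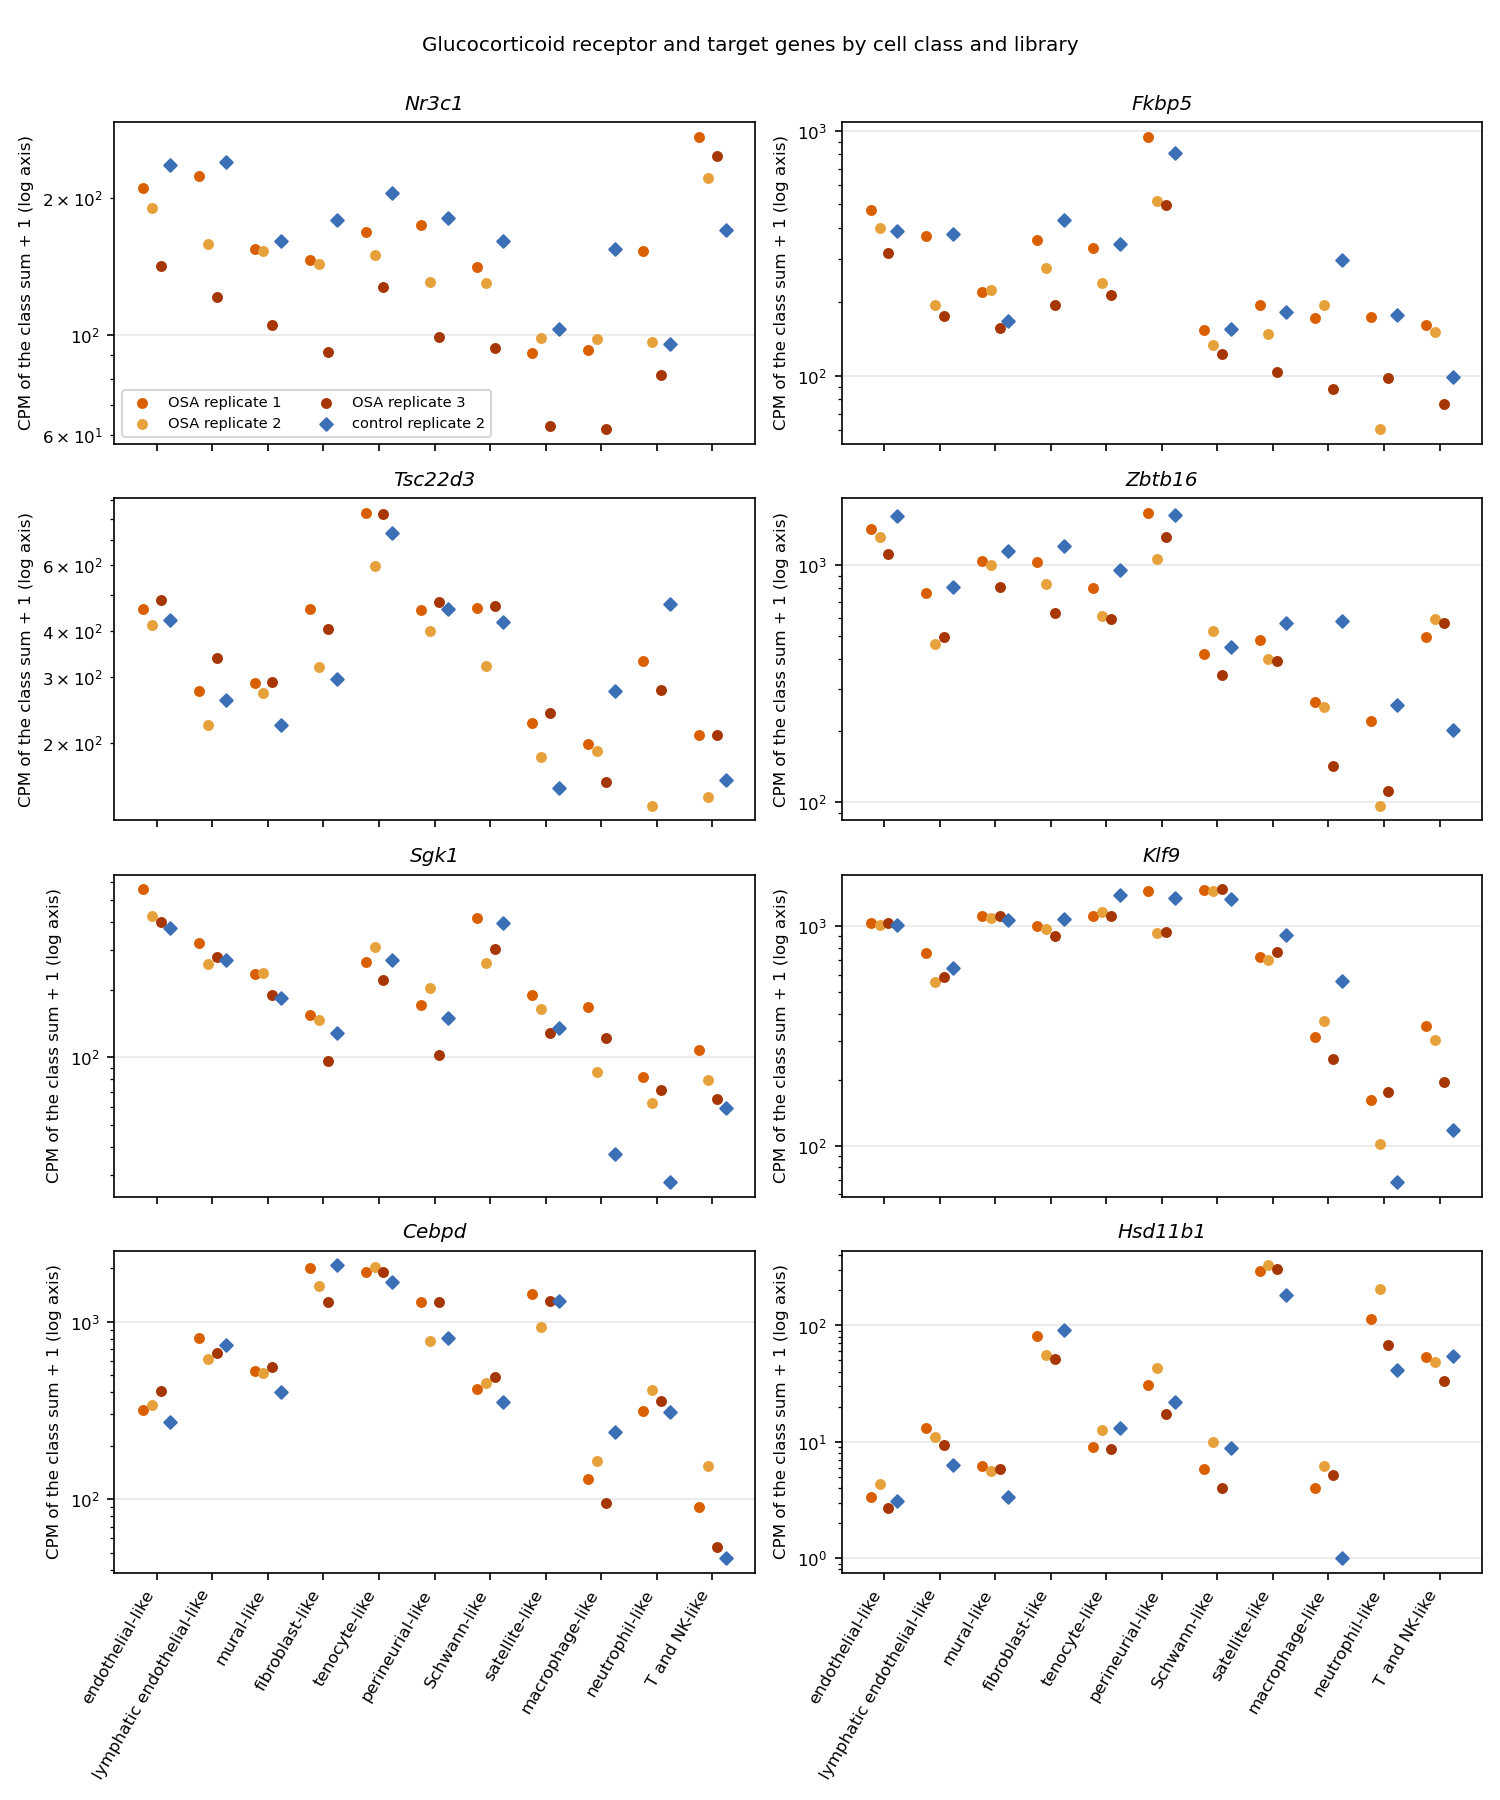
CPM plus 1 of each gene in the summed class (log axis, 1 panel a gene) for the 3 OSA libraries (orange and brown circles) and control replicate 2 (blue diamonds, to the right) in 11 cell classes. Hsd11b1 is near 300 CPM in satellite-like cells of OSA and at 0 counts in control macrophage-like cells, and Nr3c1 of the control lies above all OSA libraries in 9 classes.

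In the T and NK-like class, transcripts of Zbtb16 and Klf9 rose in OSA, and 5 of the 8 genes had all OSA libraries above the control. Zbtb16 had 495, 591 and 566 CPM in OSA (171, 174 and 300 UMIs), against 201 CPM in control (93 UMIs). The OSA mean was 551 ± 49.7 CPM (SD, n = 3), and the log2 change was 1.33 ± 0.33 SE (adjusted p 0.00361). The OSA libraries lay close together and all above the control. Klf9 had 350, 302 and 194 CPM in OSA (121, 89 and 103 UMIs), against 117 CPM in control (54 UMIs). Its OSA mean was 282 ± 80.0 CPM, and its log2 change was 1.12 ± 0.32 (adjusted p 0.0223). Here OSA replicate 3 lay nearest to the control. Over all 6875 genes tested in the class 1.95% passed as higher, and 35.0% had all OSA libraries above the control. The receptor had 272, 221 and 247 CPM, against 169 CPM (log2 0.43 ± 0.31, adjusted p 0.641), and Cebpd had 89.8, 153 and 52.8 CPM, against 45.4 CPM (log2 0.92 ± 0.45, adjusted p 0.356).

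The makeup of that class differed between the libraries, and the level of Zbtb16 differed between its clusters. A cluster led by Scart1 and by Trdc, a constant region gene of the gamma-delta T cell receptor, held 29.2%, 45.3% and 35.6% of the class in OSA (21, 24 and 53 cells), against 2.75% in control (3 cells). In that cluster Zbtb16 stood at 1109, 895 and 1333 CPM in OSA. In the cluster led by Trbc2, of the beta chain, it stood at 198, 135 and 220 CPM in OSA, against 145 CPM in control. Without the Scart1 and Trdc cluster the change of Zbtb16 in the class was 0.39 (adjusted p 0.983). Klf9 had 326, 282 and 217 CPM in the Trbc2 cluster in OSA, against 97.8 CPM in control (log2 1.29, adjusted p 0.177), and its change without the Scart1 and Trdc cluster was 1.28 (adjusted p 0.121). Both calls were also lost without OSA replicate 2 (adjusted p 0.0616 for Zbtb16 and 0.173 for Klf9) and with called doublets kept (0.120 and 0.473). That of Klf9 was further lost without OSA replicate 1 (0.151), with DESeq2 (0.659), without a filter on low counts (0.144) and with at least 10 counts asked of each library (0.0567).

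Transcripts of other cell types were present in the T and NK-like class and differed between its libraries. The 8 endothelial markers were all detected and summed to 671 to 1877 CPM in OSA, against 859 CPM in control. Of the 9 macrophage markers 8 were detected, with Fcgr1 at 0, and they summed to 98.5 to 424 CPM, against 41.1 CPM. The 9 fibroblast markers, all detected, summed to 446 to 720 CPM, against 342 CPM. Of the 7 neutrophil markers 6 were detected, with Ly6g at 0, and they summed to 14.5 to 486 CPM, against 4.33 CPM, with OSA replicate 2 the highest. The 7 monocyte markers, all detected, summed to 132 to 177 CPM, against 307 CPM. Their part in the values of Zbtb16 and Klf9 was not tested.

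In the macrophage-like class, Zbtb16 and 5 other genes were below the control in every OSA library, and Sgk1 and Hsd11b1 were above it. None passed the test with edgeR, although 7 of the 8 had an unadjusted p under 0.05, as did 16.3% of all 11962 genes tested, and 1.35% of all genes passed. Zbtb16 and Sgk1 passed with DESeq2, which called 147 genes higher and 103 lower of the 11962. All OSA libraries lay below the control for 34.5% of all genes and above it for 32.2%. Zbtb16 had 264, 252 and 141 CPM in OSA, against 581 CPM in control (log2 -1.38 ± 0.32 SE, adjusted p 0.0511 with edgeR and 0.0160 with DESeq2). Sgk1 had 166, 85.1 and 121 CPM, against 36.2 CPM (log2 1.84 ± 0.43, adjusted p 0.0624 with edgeR and 0.00878 with DESeq2). The control stood apart from all OSA libraries for both genes, on opposite sides. The receptor had 91.7, 96.8 and 60.8 CPM, against 153 CPM (log2 -0.85 ± 0.29, adjusted p 0.171), and Fkbp5 had 171, 194 and 87.3 CPM, against 296 CPM (log2 -0.95 ± 0.35, adjusted p 0.207). Klf9 had 311, 371 and 248 CPM, against 565 CPM, and Cebpd had 128, 163 and 93.8 CPM, against 237 CPM. Hsd11b1 had 10, 13 and 47 UMIs, against 0 UMIs. With the control taken at the 3 UMIs that a count of 0 allows in that library, the OSA values were 1.48-, 2.56- and 2.03-fold that level. Counting error of the OSA values, with 10 UMIs in OSA replicate 1, is not included, so these are not lower limits.

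The clusters inside the macrophage-like class also differed between the libraries. A cluster led by Folr2 and Fcna, genes of resident macrophages, held 20.7%, 25.4% and 8.13% of the class in OSA, against 71.2% in control. Clusters led by Lyz2 and Acp5 (15.2%, 7.14% and 27.3%) and by Ms4a7 and C1qb (18.3%, 3.20% and 20.3%) held no control cell. Zbtb16 stood at 107, 82.8 and 63.0 CPM in the Lyz2 and Acp5 cluster of OSA. In the Folr2 and Fcna cluster it stood at 615, 492 and 431 CPM in OSA, against 744 CPM in control, and the change there was -0.53 (adjusted p 0.943). Sgk1 stood at 328, 170 and 157 CPM in the Lyz2 and Acp5 cluster. In the Folr2 and Fcna cluster it stood at 69.1, 73.8 and 33.1 CPM in OSA, against 41.9 CPM in control, a change of 0.47 (adjusted p 0.998). Within that cluster the groups of Sgk1 overlapped, while Zbtb16 and the receptor kept all OSA libraries lower, the receptor at 108, 152 and 108 CPM, against 182 CPM. So did Fkbp5 (341, 327 and 245 CPM, against 359 CPM) and Klf9 (624, 580 and 541 CPM, against 727 CPM). None of these changes passed, and the share of all genes with every OSA library lower was not counted in that cluster. Cebpd and Tsc22d3 had the opposite sign there from the whole class, each with a log2 change of 0.14.

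**Figure D3:**
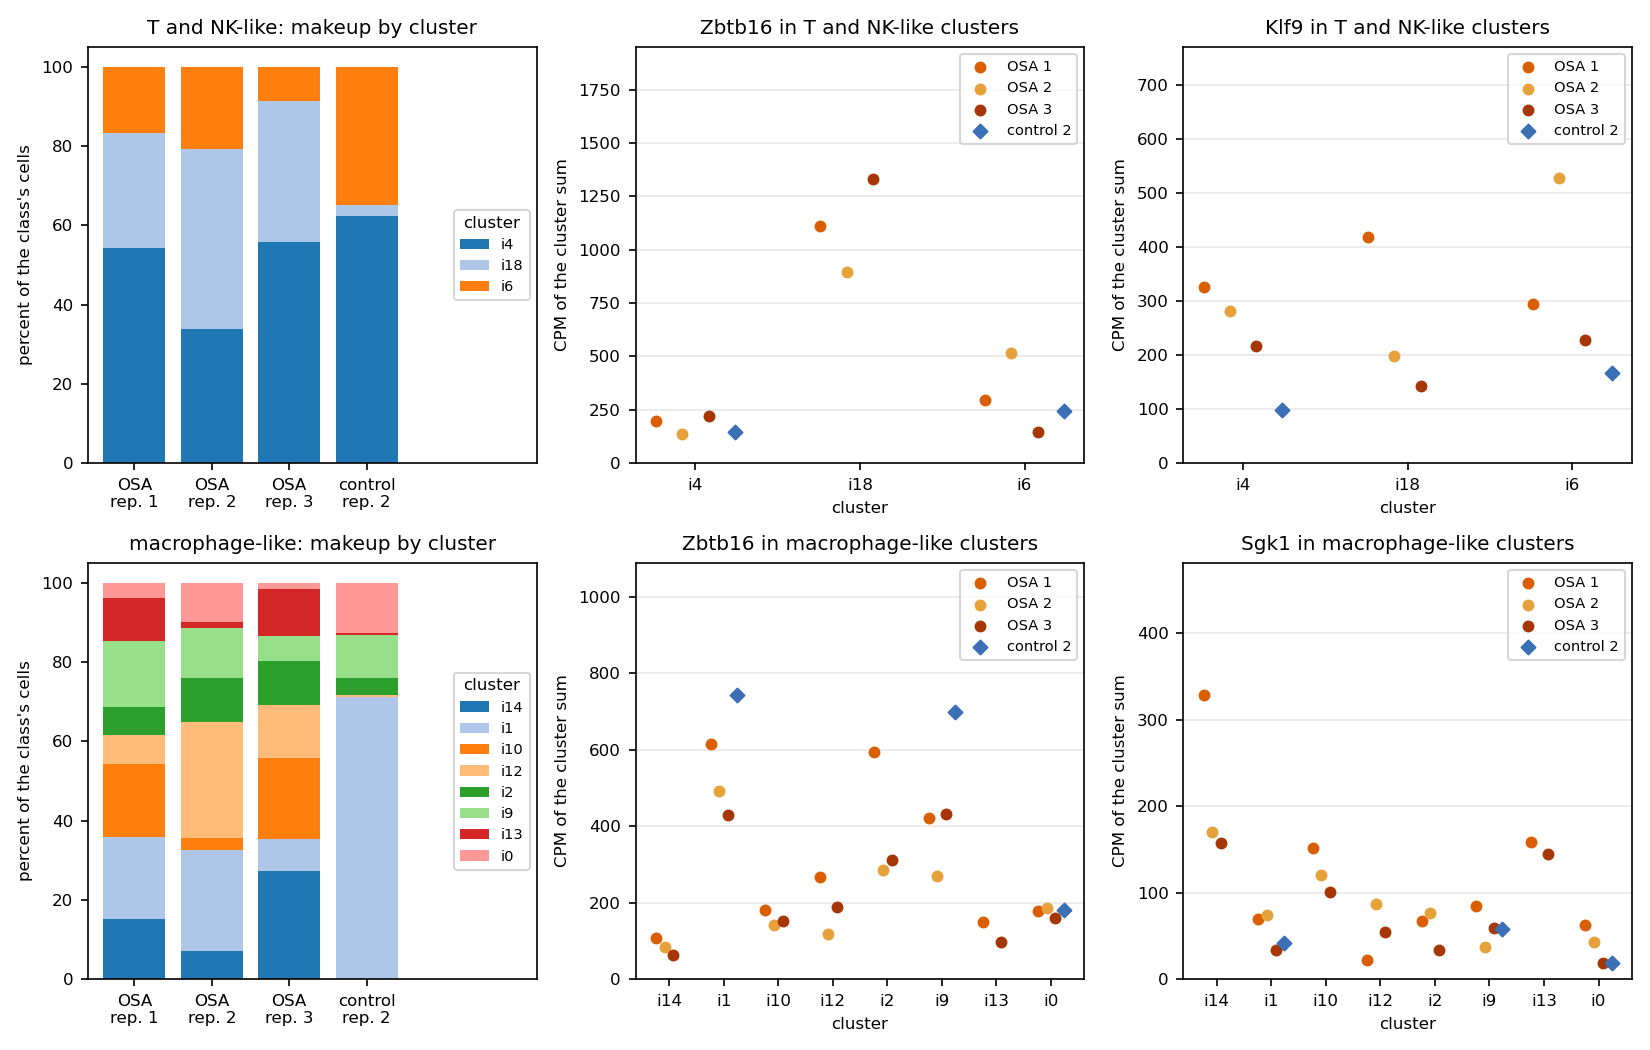
Left, percent of the cells of the T and NK-like (top) and macrophage-like (bottom) class in each of its clusters, for OSA replicates 1, 2 and 3 and control replicate 2; middle and right, CPM of Zbtb16, Klf9 and Sgk1 in each cluster with at least 10 cells of a library (circles OSA, diamonds control). The cluster i18, led by Scart1 and Trdc, holds 29.2% to 45.3% of T and NK-like cells in OSA and 2.75% in control and has the highest Zbtb16, and i1, led by Folr2 and Fcna, holds 71.2% of control macrophage-like cells; i14 is led by Lyz2 and Acp5 and i4 by Trbc2.

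Sums of the marker lists of other cell types also moved with the group in macrophage-like cells. Some listed genes are not particular to those types here. F13a1, of the monocyte list, and Pf4, of the megakaryocyte list, were among the leading genes of the Folr2 and Fcna cluster. The sums of the monocyte and megakaryocyte lists are therefore not a measure of other cells' transcripts alone. Whether this holds for the other lists was not tested, and no sum was split by cluster. The 7 monocyte markers, all detected, summed to 162 to 468 CPM in OSA, against 666 CPM in control, the 7 lymphatic endothelial markers, all detected, to 328 to 832 CPM, against 1151 CPM, and the 6 megakaryocyte markers, all detected, to 1532 to 3020 CPM, against 3974 CPM. The 9 fibroblast markers, all detected, summed to 505 to 736 CPM, against 319 CPM, and the 7 neutrophil markers, all detected, to 312 to 706 CPM, against 161 CPM. The part of these lists in the member genes' values was not tested.

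Whether the OSA change differed between classes was asked in 1 model over all 11 classes with library as a block. Zbtb16 alone of the 8 genes passed (F 5.29, adjusted p 0.0497), as did 0.321% of 13998 genes, and it lies at the edge of the threshold. Set against the mean change of the other classes, macrophage-like cells were lower for Zbtb16 (-1.19 ± 0.25 SE, adjusted p 0.00539), Klf9 (-1.01 ± 0.23, 0.0134) and Cebpd (-1.15 ± 0.32, 0.0486). They were higher for Sgk1 (1.54 ± 0.35, adjusted p 0.0120), and 2.59% of all genes passed in that contrast. T and NK-like cells were higher for Zbtb16 (1.76 ± 0.31, adjusted p 0.00346), where 0.893% of all genes passed. With macrophage-like cells held to the Folr2 and Fcna cluster and T and NK-like cells without the Scart1 and Trdc cluster, none of these differences passed. Zbtb16 then stood at -0.28 (adjusted p 1.00) in macrophage-like and 0.71 (adjusted p 0.516) in T and NK-like cells, and Sgk1 at 0.12 (adjusted p 1.00) in macrophage-like cells. All 5 were also lost without OSA replicate 3, with adjusted p of 0.0995 for Zbtb16, 0.104 for Sgk1, 0.0729 for Klf9 and 0.186 for Cebpd in macrophage-like cells and 0.0931 for Zbtb16 in T and NK-like cells. Without OSA replicate 1, Sgk1 (0.10045), Klf9 (0.0939) and Cebpd (0.229) were lost. The overall test of Zbtb16 was lost without OSA replicate 1 (0.156) or 3 (0.583) and in classes of at least 100 cells (0.101).

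Shares of cells with at least 1 UMI were compared after thinning every cell to 1500 UMIs, which left out 5, 0 and 20 T and NK-like cells in OSA and 4 in control. Their median depths were 4116, 5117 and 3435 UMIs in OSA and 4041 in control. Zbtb16 was then found in 38.8%, 30.2% and 33.3% of T and NK-like cells in OSA, against 21.0% in control (95% exact binomial interval 13.6% to 29.99%), and before thinning in 51.4%, 60.4% and 49.7%, against 38.5%. In neutrophil-like cells, the class with the lowest level, it was found in 22.4%, 13.01% and 14.4% in OSA, against 32.3% in control, at median depths of 2180.5, 2681 and 1887 UMIs, against 1797, with 32, 63 and 79 cells left out, against 11. The control's T and NK-like share thus did not exceed that of neutrophil-like cells, whereas each OSA share was above the neutrophil-like share of its library. Neutrophil-like cells may carry the gene themselves, so their share is not a measure of background. Klf9 was found in 32.8%, 28.3% and 20.9% of T and NK-like cells in OSA, against 9.52% in control (4.66% to 16.8%), and before thinning in 54.2%, 49.1% and 37.6%, against 34.9%. In neutrophil-like cells it was found in 15.1%, 12.6% and 19.8% in OSA, against 9.68% in control. For Klf9 the control's T and NK-like share did not exceed the neutrophil-like one, and OSA replicate 3 lay close to the neutrophil-like share of its library.

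In macrophage-like cells thinned alike, Zbtb16 was found in 35.1%, 30.5% and 19.7% in OSA, against 57.8% in control (50.5% to 64.9%), with 26, 32 and 188 cells left out, against 13. Before thinning the shares were 71.2%, 58.1% and 50.4%, against 86.8%, at median depths of 7275.5, 5142 and 6122 UMIs, against 6402. Sgk1 was found in 14.0%, 10.2% and 13.3% in OSA, against 5.21% in control (2.53% to 9.37%), and before thinning in 45.5%, 26.6% and 37.7%, against 21.0%. In neutrophil-like cells Sgk1 was found in 7.89%, 7.76% and 7.78% in OSA, against 0 of 31 cells in control (upper limit 11.2%). Hsd11b1 was found in 40%, 36.4% and 37.0% of satellite-like cells in OSA, against 25.5% in control (20.4% to 31.1%), and before thinning in 73.0%, 68.5% and 66.8%, against 54.0%. In endothelial-like cells it was found in 0.363%, 0.540% and 0.446% in OSA, against 0.355% in control. The OSA shares of Hsd11b1 in satellite-like cells all lay above the upper limit of the control, and each was far above the endothelial-like share of its library. Depths of satellite-like cells were 5519, 6164 and 4668.5 UMIs in OSA and 5866.5 in control, those of endothelial-like cells 3074.5, 3542 and 2656, against 3006. Thinning left out 7, 4 and 11 satellite-like cells, against 5, and 1190, 676 and 1036 endothelial-like cells, against 1019. Intervals cover counting error only.

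**Figure D4:**
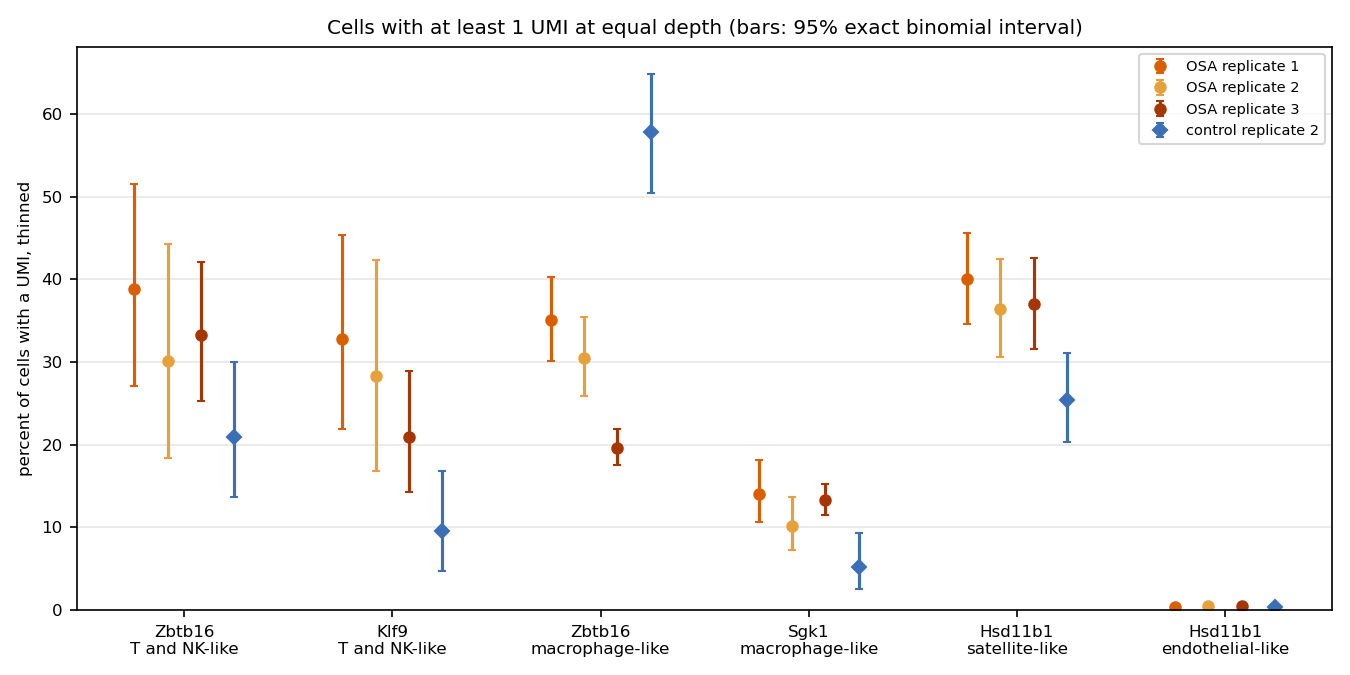
Percent of cells with at least 1 UMI of a gene after thinning to 1500 UMIs a cell, for OSA replicates 1, 2 and 3 (circles) and control replicate 2 (diamond, to the right), with exact binomial 95% intervals as bars. Zbtb16 lies at 19.7% to 35.1% in OSA macrophage-like cells and 57.8% in the control, and Hsd11b1 is at most 0.540% in endothelial-like cells of any library.

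Summed over all kept cells, where makeup and level per class cannot be told apart, none of the 8 genes passed. No gene of 20888 passed with edgeR (0.0%), an unadjusted p under 0.05 was given to 659, and 128 passed with DESeq2, none of them among the 8. Of the 8, 5 lay below the control in every OSA library, as did 31.8% of all genes. The receptor had 167, 152 and 98.4 CPM in OSA, against 191 CPM in control (log2 -0.38 ± 0.26 SE, adjusted p 0.991). Zbtb16 had 1040, 901 and 624 CPM, against 1210 CPM (log2 -0.42 ± 0.29, adjusted p 0.991). For both genes OSA replicate 3 was the lowest library.

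The wider pathway was read from lists chosen with earlier results known. None of 14 receptor chaperones and cofactors passed in any class (152 pairs of a gene and a class, 0 with edgeR and 0 with DESeq2, 10 with an unadjusted p under 0.05). Over all genes tested, the share with an unadjusted p under 0.05 ran from 3.47% in Schwann-like to 16.3% in macrophage-like cells. Hsp90ab1, an abundant chaperone of the receptor, had 1428, 1512 and 1762 CPM in T and NK-like cells in OSA, against 2268 CPM in control (log2 -0.65 ± 0.25 SE, adjusted p 0.148). Hsp90aa1, the inducible form, had 426, 528 and 369 CPM in macrophage-like cells in OSA, against 897 CPM (log2 -0.98 ± 0.30, adjusted p 0.123). Neither passed, and both had all OSA libraries below the control. None of 6 genes of steroid handling passed in any class where it could be tested (52 pairs of a gene and a class, 0 with edgeR and 0 with DESeq2, 6 with an unadjusted p under 0.05). For this list too, the share over all genes was 3.47% to 16.3% by class.

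Of 26 other glucocorticoid-responsive genes, 20 could be tested in T and NK-like cells, where 2 rose and none fell, against 1.95% of all genes called higher and 1.13% called lower, with a list median of 0.35 against 0.06 for all genes. These were the metallothioneins, metal-binding proteins also induced by zinc. Mt2 had 339, 870 and 700 CPM in OSA, against 216 CPM in control (log2 1.43 ± 0.33 SE, adjusted p 0.00157), and Mt1 had 461, 1033 and 909 CPM, against 309 CPM (log2 1.25 ± 0.32, adjusted p 0.00516). Mt2 also rose in lymphatic endothelial-like cells, with 794, 1484 and 1302 CPM in OSA, against 396 CPM in control (log2 1.62 ± 0.32, adjusted p 0.0190), where 0.0911% of all genes passed as higher. OSA replicate 1 was the lowest OSA library for both genes. All OSA libraries also lay above the control for Mt2 in Schwann-like, fibroblast-like, mural-like, perineurial-like and tenocyte-like cells, without passing. In fibroblast-like cells it had 9691, 16682 and 14254 CPM in OSA, against 9199 CPM in control. In macrophage-like and satellite-like cells the groups overlapped. The part of transcripts from such classes in the T and NK-like values of Mt1 and Mt2 was not tested. The Mt2 call in lymphatic endothelial-like cells was lost without OSA replicate 2 (adjusted p 0.0761) or 3 (0.909), and those in T and NK-like cells without OSA replicate 2 (0.115 for Mt2 and 0.191 for Mt1) and, for Mt2, without 3 (0.0721). The calls ended in 6 of the 11 alternatives each for Mt1 and Mt2 in T and NK-like cells and in 6 of 10 for Mt2 in lymphatic endothelial-like cells. DESeq2 made none of these 3 calls, and over all classes it called 1 pair of the list, Fam107a in endothelial-like cells, named after its value was seen. Of all 16363 genes tested in endothelial-like cells, DESeq2 called 34 higher and 6 lower.

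Among 11 clock genes listed in the files, 9 were tested in T and NK-like cells and 1 passed as higher, as did 1.95% of all genes. Nr1d1, a repressor of the clock, had 60.8, 51.0 and 79.2 CPM in OSA, against 12.98 CPM in control (log2 2.18 ± 0.61 SE, adjusted p 0.0151). The call ended in 6 of 10 alternatives, among them without OSA replicate 3 (adjusted p 0.0540), with DESeq2 (0.698), with doublets kept (0.595) and without the Scart1 and Trdc cluster (0.717). Its level in the control rested on 6 UMIs, and the hour of collection is not stated. All 10 immediate early genes had every OSA library below the control in macrophage-like cells, with a list median of -0.86 against 0.04 for all genes, and 1 passed with edgeR, where 34.5% of all genes had every OSA library below the control and 1.35% passed. Egr1 had 376, 435 and 222 CPM in OSA, against 969 CPM in control (log2 -1.46 ± 0.32, adjusted p 0.0413). In the Folr2 and Fcna cluster alone its change was -0.46 (adjusted p 0.998), and without OSA replicate 1 the adjusted p was 0.216. Fos had 2428, 2020 and 1291 CPM, against 3296 CPM, and Jun 1294, 1496 and 661 CPM, against 2869 CPM, without passing with edgeR. DESeq2 passed 3 of the list in macrophage-like cells, Egr1, Jun and Btg2, the last named after its value was seen. Of all 11962 genes tested in that class, DESeq2 called 147 higher and 103 lower.

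Likeness of pattern was read over the 11 class means among 6920 genes, as a description of classes that come from the same libraries. The receptor was most like Aak1 (Pearson r 0.95), Mbd2 (0.92) and Azi2 (0.86). Zbtb16 was most like 0610043K17Rik (0.97), Fbxw8 (0.96) and Slc50a1 (0.93), and Fkbp5 like Adamtsl3 (0.91), Prdm2 (0.90) and Eeig2 (0.89). Sgk1 was most like Bag5 (0.96), Txndc12 (0.93) and Tmem223 (0.93), and Klf9 like Cltb, Slc12a4 and Psmd7 (0.97 each). Cebpd was most like Fkbp7 (0.92), Pals1 (0.91) and Nfix (0.91). Tsc22d3 (Herpud1, 0.85) and Hsd11b1 (Rap1gap2, 0.84) had the weakest best matches. Among the 8 genes themselves the closest pairs were Fkbp5 with Zbtb16 (0.80) and Klf9 with Sgk1 (0.80).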

How the data were processed

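Single-cell RNA was counted per gene and barcode by the authors, who deposited raw UMI counts as 10x matrices aligned to GRCm39, made with Cell Ranger 9.0.1 per the file headers. OSA replicates 1, 2 and 3 and control replicate 2 were analysed, grouped by the treatment label, with total counts of 78935595, 74007957 and 82184913 UMIs in the OSA libraries and 70217449 in the control. Barcodes were kept with at least 300 genes, at least 500 UMIs and at most 20% mitochondrial counts, which removed 29, 31 and 17 barcodes in OSA and 21 in control. Scrublet, in scanpy 1.11.5, called 496, 358 and 574 doublets in OSA and 423 in control at an expected rate of 0.1, and these were removed. Cells were clustered (2000 variable genes, 30 principal components, 15 neighbours, Leiden resolution 1), immune clusters were clustered again, and clusters were named from 21 marker lists. A name needed at least 3 markers, and 532, 574 and 414 cells in OSA and 353 in control stayed unnamed. Names were rebuilt here and may differ from the study's.

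Counts were summed per library and class. CPM divide by the class total with no further scaling. Log2 changes come from edgeR 4.0.16 (TMM scaling, filterByExpr, quasi-likelihood test) in R 4.3.3, adjusted over all genes of a class, where 2 degrees of freedom remain and the single control library is taken to vary as the OSA libraries do. DESeq2 1.42.0 was an alternative. The difference between classes was fitted in 1 edgeR model with library as a block. The fits were tested on simulated data. The members, marker lists and pathway lists were chosen with earlier results of these data known. By rule the text names the members in every class and, from each pathway list, genes that passed the test and up to 3 of the highest mean CPM. For likeness, the 3 genes of highest Pearson correlation over log2 of mean CPM plus 10 were named, among genes reaching 50 CPM in a class. Alternatives were other scaling, filters, doublets kept, thinned totals, single clusters and each OSA library left out. Intervals are exact binomial ones at 95%. One marker list is not reported here.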

Additional observations from a re-analysis of the deposited data

Results flagged for a closer look

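Of the comparisons between classes, 6 values stood apart because the OSA change differed between cell classes by a test of the difference itself, in the edgeR model with library as a block. Over all 11 classes, the change of Zbtb16 differed with an adjusted p of 0.0497. In macrophage-like cells the OSA change less the mean change of the other classes was -1.19 for Zbtb16, -1.01 for Klf9 and -1.15 for Cebpd on the log2 scale. For Sgk1 in macrophage-like cells it was 1.54. In T and NK-like cells it was 1.76 for Zbtb16. None of the 6 passed when macrophage-like cells were held to the Folr2 and Fcna cluster and T and NK-like cells were taken without the Scart1 and Trdc cluster. All 5 contrasts of a class with the others also failed without OSA replicate 3 (adjusted p 0.0729 to 0.186), and those of Sgk1, Klf9 and Cebpd failed without OSA replicate 1 (0.0939 to 0.229).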

How the results depend on the processing

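The 2 pairs of a gene and a class called among the 8 genes became 4 without a filter on low counts, 1 with at least 10 counts in each library, 0 with doublets kept, 4 with thinned totals, 0 in the largest cluster alone and 0 without the Scart1 and Trdc cluster, and 2 to 6 with 1 OSA library left out. Genes called higher, summed over classes, numbered 235, against 960 without a filter, 94 with at least 10 counts, 153 in the largest cluster and 137 without the Scart1 and Trdc cluster, and 499 to 1285 with 1 OSA library left out. Genes called lower numbered 191, against 126 with DESeq2, 561 without a filter, 102 with at least 10 counts, 120 without the Scart1 and Trdc cluster, 112 in the cluster with the most control cells, and 421 to 785 with 1 OSA library left out. Over all kept cells the count of 0 became 128 with DESeq2, and 0 to 193 with 1 OSA library left out, the highest without OSA replicate 2. Genes whose change differed between classes numbered 45, against 134 in classes of at least 100 cells, 0 with fewer clusters, and 0 to 628 with 1 OSA library left out. Of the 8 genes 1 differed between classes, against 0 in classes of at least 100 cells, 0 with fewer clusters, and 0 to 5 with 1 OSA library left out.

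The sign turned in 3 cases. Cebpd in T and NK-like cells stood at -0.10 with doublets kept, and Cebpd and Tsc22d3 in macrophage-like cells both stood at 0.14 in the Folr2 and Fcna cluster. Without OSA replicate 2 the macrophage-like changes of Zbtb16 (adjusted p 0.000655), Sgk1 (2.5e-06), Cebpd (0.0216), Fkbp5 (0.00881), Nr3c1 (0.0343) and Hsd11b1 (0.0464) passed the test. Of all 11998 genes of the class tested in that fit, 623 passed as higher and 660 as lower. With all libraries 64 passed as higher and 97 as lower of 11962. The rise in calls was thus not limited to the genes named. Among values of single genes, 163 kept their direction and side of the threshold, 56 no longer passed, 16 newly passed and 13 shares moved beyond their interval. The cause of the differences other than those of the shares was not tested. Alternatives by cluster and the fit with fewer clusters were chosen after seeing the data, except for the largest cluster, which gave no value for macrophage-like and neutrophil-like cells, since it held no control cell there. No paired analysis was possible because 1 control library was analysed, so the groups share fewer than 2 replicate numbers. With 1 control library, its own deviations cannot be told apart from an OSA effect, and it could not be left out in turn. Classes of few cells limit depth most: neutrophil-like control cells gave 2 UMIs of Sgk1 and 3 of Hsd11b1.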

Other observations

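Among the classes too small to test, mast-like cells (34, 34 and 36 cells in OSA, 22 in control) had the highest receptor level of any named class. Nr3c1 stood there at 654, 436 and 399 CPM in OSA, against 611 CPM in control, on 90, 88 and 56 UMIs, against 73 UMIs. The groups overlapped.

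Within fibroblast-like cells, a cluster led by Saa3 and Sfrp2 held 99, 24 and 743 cells in OSA, against 8 cells in control, so most of it came from OSA replicate 3. Zbtb16 stood there at 412, 225 and 322 CPM in OSA, below the 1027, 831 and 624 CPM of the whole class in the same libraries. In the neutrophil-like cluster that held 40 of the 42 control cells, Hsd11b1 stood at 117, 94.0 and 89.6 CPM in OSA, against 43.7 CPM in control. The whole neutrophil-like class of the control held 3 UMIs of the gene, too few for a fold change.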
